A study of Mus musculus with 39 samples.

Results

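The effect of Activin A on the miRNAs of differentiating mouse embryonic stem cells (ESCs) was measured at day 3 by comparing 3 Activin A arrays with 3 control arrays of the same day, which are 6 of the 39 arrays of the series. The series followed TCL-1 cells, a mouse ESC line from 129/SvJae mice, towards definitive endoderm (DE) with Activin A, Wnt3a or both for 1, 3 or 5 days. Every day-3 culture started from TCL-1 cells that had been freed of their feeder fibroblasts by a short passage on gelatin, and was kept on collagen in RPMI medium with B27 and sodium butyrate. The Activin A group received 100 ng/ml Activin A in that medium, and the control group received the medium without growth factors. The Wnt3a group (50 ng/ml) and the Activin A plus Wnt3a group (100 and 50 ng/ml) of day 3, with 3 arrays each, entered the same fit and give the spread with the other 2 groups.

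All arrays come from 1 ESC line, and the labels do not say whether the 3 arrays of a group came from separate cultures. The p-values therefore measure the spread between these arrays, which may be technical, and with 3 arrays in a group every value is of limited precision. Each array is bulk RNA, so fewer cells of one kind and less RNA per cell cannot be told apart.

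A miRNA is a short RNA that guides a silencing complex to messenger RNAs, and its seed, bases 2 to 8 from the 5′ end, does most of the recognition. miRNAs that lie close together in the genome are often cut from 1 long precursor, and related miRNAs that share a seed are grouped as a family. Activin A is a TGF-β family ligand that signals through SMAD transcription factors, stands in for Nodal, and is widely used to direct ESCs to DE. The miR-290 cluster and the cluster of miR-302 and miR-367 are the abundant miRNAs of pluripotent and early embryonic cells, the miR-200 family marks epithelial cells, the let-7 family accumulates as cells differentiate, and miR-124, miR-9 and miR-219 are best known from neural cells.

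The sequences below are those on which the comparison turns, with the seed in capitals. RefSeq (GRCm38.p6) held a mature sequence for 51 of the 62 miRNAs called different, 10 under the same name and 41 after adding the arm that the array name leaves out. The miR-200 family is shown because all of its tested members rose, and it splits into a pair of seeds that differ in 1 base:
miR-141: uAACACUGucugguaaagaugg
miR-200a: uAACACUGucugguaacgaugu
miR-200b: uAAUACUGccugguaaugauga
miR-200c: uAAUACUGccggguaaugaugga
miR-429: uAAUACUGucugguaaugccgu
Positions are counted from 1 at the 5′ end. miR-141 and miR-200a differ at 2 positions, A17C and G22U, both outside the seed.

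The next sets share a seed but were called in opposite directions. In the set with the seed AUUGCAC miR-32 and miR-367 were called higher with Activin A and miR-92a lower. In the set with the seed CCCUGAG miR-125a-5p was called higher and miR-125b-5p lower. In the set with the seed ACAUUCA miR-181c was called higher and miR-181b lower.
miR-32: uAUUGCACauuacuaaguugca
miR-367: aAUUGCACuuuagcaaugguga
miR-92a: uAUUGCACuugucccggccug
miR-125a-5p: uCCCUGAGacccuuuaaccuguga
miR-125b-5p: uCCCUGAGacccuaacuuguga
miR-181c: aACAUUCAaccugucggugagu
miR-181b: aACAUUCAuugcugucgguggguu

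The last sets are close relatives called in 1 direction, and some, not all, of the miRNAs with wide differences among those with a sequence. They are the pluripotency seed AAGUGCU of miR-291a-3p, miR-294 and miR-295, the let-7 seed, the miR-99/100 and miR-10 pairs, both arms of miR-335, and miR-489. miR-294, the brightest of them, is shown with its relatives although it passed the adjusted p only.
miR-291a-3p: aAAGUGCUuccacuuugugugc
miR-294: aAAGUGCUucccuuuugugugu
miR-295: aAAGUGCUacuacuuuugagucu
let-7c: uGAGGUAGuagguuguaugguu
let-7e: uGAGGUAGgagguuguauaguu
miR-99a: aACCCGUAgauccgaucuugug
miR-100: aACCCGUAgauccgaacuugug
miR-10a: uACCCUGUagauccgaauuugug
miR-10b: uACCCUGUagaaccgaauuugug
miR-335-5p: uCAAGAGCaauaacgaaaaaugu
miR-335-3p: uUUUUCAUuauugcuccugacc
miR-489: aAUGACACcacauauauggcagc
let-7c and let-7e differ by U9G and G19A, miR-99a and miR-100 by U16A, and miR-10a and miR-10b by U12A. Close relatives of this kind can cross-hybridize on an array, and this was not tested here. Of the 39 different seeds among the called miRNAs with a sequence, 10 were held by more than 1 called miRNA. In 7 of these 10 all called holders moved in 1 direction. Most called miRNAs, 41 of 62, were higher, so called miRNAs can share a direction without sharing a seed. Whether holders of 1 seed agreed more often than other called miRNAs was not tested.

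Across the 6 arrays 250 to 296 of the 611 mouse miRNAs were detected, and no spot was saturated. Before normalization the detected signals summed to 80451 to 87899 on the control arrays and 101198 to 130930 on the Activin A arrays. Quantile normalization removes this difference, so the values below are relative to the other miRNAs of an array. The cause of the difference was not tested. Array control 2 stood apart: it had the fewest detected miRNAs, 250, and its lowest detected normalized signal was 11.3 against 3.53 to 5.32 on the other 5 arrays. Dim miRNAs can therefore be missing on control 2 alone, and results that rest on it are given with and without it. The bounds given below for miRNAs undetected in control are 1.46 times as large without control 2. The 3 Activin A arrays and control 2 and 3 were on 1 slide, and control 1 was on another. In the deposited value table of the series the Activin A and the Activin A plus Wnt3a columns of day 3 are exchanged against the scanner output, so the values here come from the scanner output, whose own names match the labels. Where the direction of a miRNA turns when the Activin A plus Wnt3a arrays are put in place of the Activin A arrays, that value is given beside it.

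At day 3, Activin A raised the miR-200 family, most of the miR-290 cluster, the miR-23/27/24 group, let-7c and let-7e, and lowered miR-219, miR-124, miR-125b-5p, miR-100, miR-181b, miR-322, miR-503 and both arms of miR-335. Of 319 miRNAs tested, 62 (19.4%) were called, meaning that they passed a Benjamini-Hochberg adjusted p of 0.05 in limma's moderated test and differed more than 2-fold. Activin A was higher for 41 (12.9%) and lower for 21 (6.58%). By adjusted p alone 181 (56.7%) passed, 83 (26%) higher and 98 (30.7%) lower, and the remaining 119 of these differed 2-fold or less, 42 higher and 77 lower. After normexp background correction with an offset of 50, 60 of the 62 passed the adjusted p but only 9 miRNAs differed more than 2-fold. All values below are log2 normalized signals or differences of them. The median difference over all tested miRNAs was -0.02 and the median standard error (SE) was 0.11. Over the 244 miRNAs detected on all 6 arrays the root mean square difference was 0.17 to 0.20 between Activin A arrays, 0.28 to 0.39 between control arrays and 0.69 to 0.76 between a control and an Activin A array. The 3 values of one group did not overlap those of the other for 185 tested miRNAs (58%).

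Whether both groups had a signal decides what a difference means. Of the called miRNAs, 35 were detected on all 6 arrays, 23 higher and 12 lower with Activin A. A further 8 called higher were detected on no control array and 7 called lower on no Activin A array. An undetected miRNA is set to a floor with a log2 value of 1, where its values have no spread. Its fitted difference and its p-value therefore depend on that floor. For such a miRNA a lower bound of the fold is given instead, measured against the lowest detected signals of the arrays where it was missing. The bound assumes that the missing miRNA lay no higher than those signals, which was not tested. No fold is given where that bound is below 1. A p-value printed beside a bound belongs to the floored difference and does not test the bound. The last 12 called miRNAs were missing on only part of a group.

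**Figure D1:**
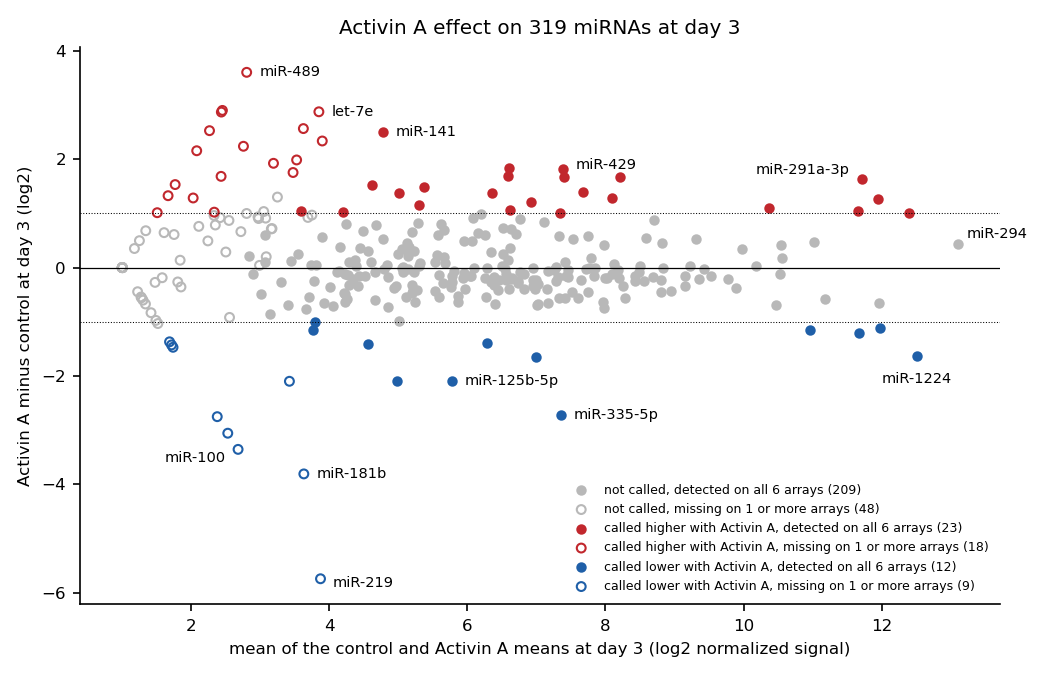
The Activin A minus control difference at day 3 (vertical axis, log2) is plotted against the mean level of both groups (horizontal axis, log2 normalized signal) for the 319 tested miRNAs, with filled points for miRNAs detected on all 6 arrays and dotted lines at a log2 difference of 1 and -1. Differences ran from -5.74 for miR-219 to 3.60 for miR-489, both of which were undetected in 1 group, and the called miRNAs at the right edge include miR-291a-3p at 1.64 and miR-1224 at -1.63.

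The miR-200 family keeps epithelial cells epithelial by silencing the repressors ZEB1 and ZEB2. All 5 of its 5 tested members were called higher with Activin A, with a median difference of 1.82 beside -0.02 for all tested miRNAs, and 4 further rows of the family on the array were not tested. miR-141 was at 3.49, 4.05 and 3.04 on the control arrays and at 6.10, 6.12 and 5.87 on the Activin A arrays. Every Activin A array lay above every control array, and the difference was 2.50 (SE 0.22, limma adjusted p = 6.5e-06), or 5.67-fold. Its neighbour miR-200c rose from 5.75 ± 0.09 to 7.43 ± 0.03 (SD, n = 3), a difference of 1.68. Both are cut from the minus strand of chromosome 6 within chr6:124717914-124718390 (GRCm38.p6).

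The other 3 members lie together on chromosome 4, minus strand, within chr4:156053905-156055750. miR-200a was at 5.74, 5.76 and 5.53 in control and at 7.43, 7.49 and 7.65 with Activin A, a difference of 1.85 (SE 0.08). miR-429 was at 6.40, 6.46 and 6.58 in control and at 8.32, 8.26 and 8.32 with Activin A, a difference of 1.82 (SE 0.06). miR-200b, the brightest member, rose from 7.38 ± 0.08 to 9.05 ± 0.09, a difference of 1.68. None of the 5 members overlapped between the groups, which held for 58% of all tested miRNAs. The 2 seeds of the family moved alike. With Wnt3a alone the means were 3.88 for miR-141 and 7.62 for miR-200b, and with Activin A plus Wnt3a they were 5.64 and 9.14. The 3 treated groups share the control arrays.

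The miR-290 cluster is transcribed in ESCs and early embryos, and its miR-291a-3p, miR-294 and miR-295 promote the rapid cell cycle of ESCs. Of 13 tested members 9 were called higher and 12 passed the adjusted p, all higher, and the median difference was 1.16. Together the members summed to a normalized signal of 18221 to 19458 on the control arrays and 35438 to 35477 on the Activin A arrays. The hairpins found in RefSeq lie within chr7:3218626-3220841 on the plus strand. miR-291a-3p was at 10.98, 10.98 and 10.74 in control and at 12.48, 12.64 and 12.48 with Activin A, a difference of 1.64 (SE 0.11, limma adjusted p = 1.27e-06). The star strands moved with it, since miR-295* differed by 1.52, miR-294* by 1.49 and miR-291a-5p, also from the opposite arm, by 1.38. miR-293* was detected on no control array and on all Activin A arrays (4.03, 3.66 and 4.02), at least 2.81-fold higher. The cluster also gave miR-292-3p at 1.27, miR-290-3p at 1.16, miR-293 at 1.05 and miR-295 at 1.00, the last of which fell just short of 2-fold without control 2 (0.93). miR-292-5p (0.91), miR-290-5p (0.54) and miR-294 (0.43) passed the adjusted p but not 2-fold, and miR-291b-5p was at 0.71 with an adjusted p of 0.38.

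For the brightest miRNAs the size of the difference rests on the normalization. Quantile normalization gives every array the same set of values, so a miRNA at the same rank on 2 arrays gets the same value and the top ranks have little room to move. miR-294 was the brightest miRNA on all 3 Activin A arrays, at 13.32 each, and the second brightest on all 3 control arrays, at 12.89 each. Scaled instead to the 75th percentile of the miRNAs detected on all arrays it differed by 0.79 in place of 0.43. Of the 13 miRNAs among the 10 brightest on any of the 6 arrays 9 were called, and 3 of these differed more than 2-fold under that scaling. In the miR-290 cluster miR-291a-3p kept a difference of 1.30 and miR-295 of 1.07, while miR-292-3p was at 0.88 and miR-293 at 0.85.

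The cluster of miR-302 and miR-367 follows miR-290 in development and shares its seed in part. Of 8 tested members 2 were called higher and 6 passed the adjusted p, all higher, with a median of 0.50. miR-367 was at 10.16, 10.16 and 9.16 in control and at 10.81, 11.13 and 10.81 with Activin A, a difference of 1.09 (SE 0.24, limma adjusted p = 0.00341). The other called member, miR-302b*, was undetected on all control arrays and on 1 Activin A array, and it did not pass when any 1 control array (adjusted p = 0.0566 without control 2), Activin A 1 or Activin A 3 was left out. miR-302a* rose by 0.69, miR-302c by 0.52, miR-302a by 0.48 and miR-302b by 0.42, each without overlap between the groups. Such a lack of overlap was found for 58% of all tested miRNAs. For miR-302b the direction turned to -0.04 after normexp background correction. miR-302d was at 10.47 in control and 10.64 with Activin A, with an adjusted p of 0.113. The cluster lies within chr3:127545228-127545807 on the plus strand.

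**Figure D2:**
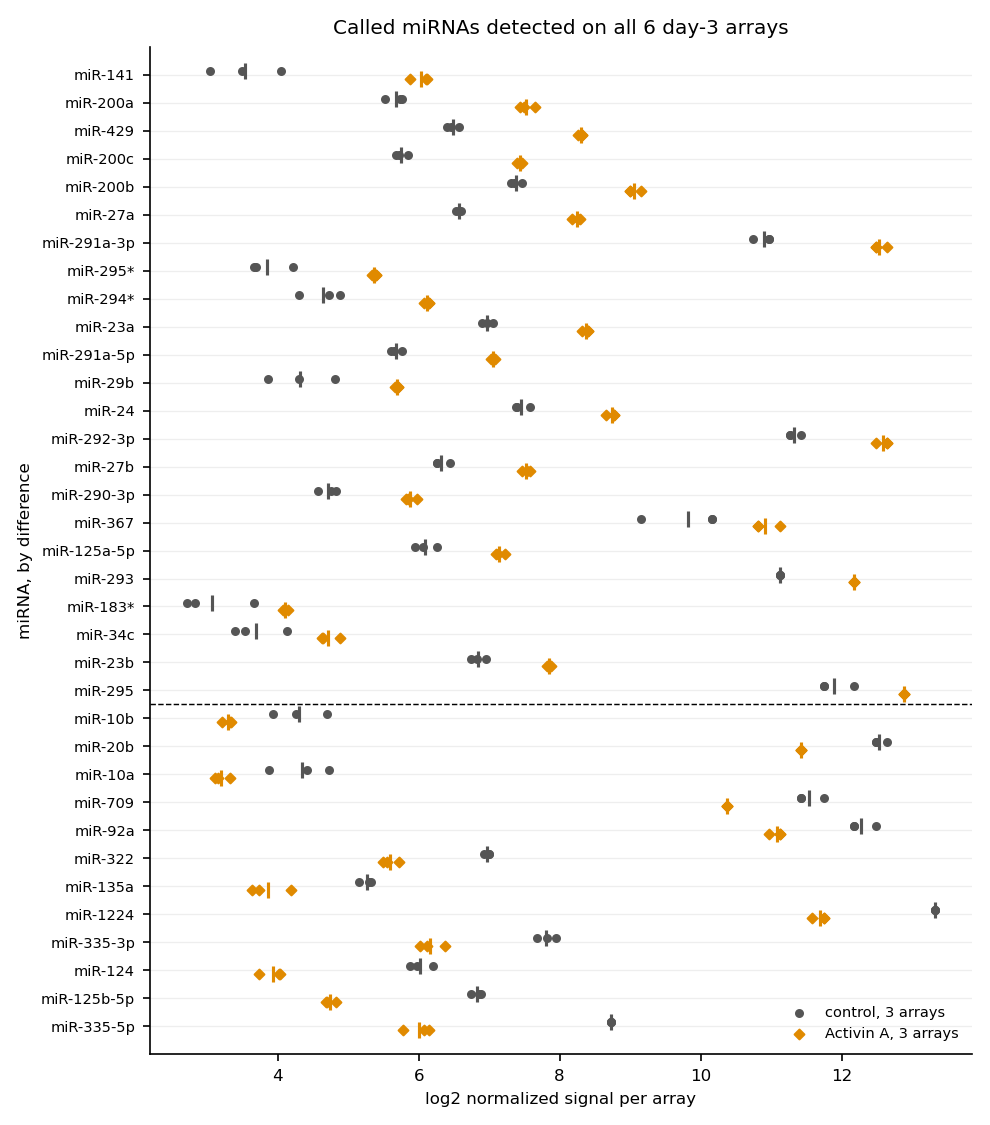
Each row is 1 of the 35 called miRNAs detected on all 6 arrays, ordered by difference, with the log2 normalized signal of each array on the horizontal axis, circles for the 3 control arrays, diamonds for the 3 Activin A arrays and a vertical mark at each group mean. The 23 miRNAs above the dashed line were higher with Activin A and the 12 below it lower. The groups are separate in every row, as they were for 58% of all tested miRNAs.

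Some miRNAs known from neural cells fell. miR-219, which promotes oligodendrocyte maturation, was at 6.95, 7.10 and 6.19 in control and was detected on no Activin A array, at least 22.7-fold lower (limma adjusted p = 1.07e-08). miR-124, the most abundant miRNA of neurons, fell from 6.21, 5.97 and 5.87 to 4.02, 4.03 and 3.74, a difference of -2.09 (SE 0.12, adjusted p = 2.73e-07) or 4.25-fold. Its star strand miR-124* was at 3.30, 3.91 and 4.05 in control and undetected with Activin A, at least 2.86-fold lower. With Wnt3a alone miR-219 was at a mean of 6.85 and miR-124 at 5.78, close to their control means of 6.74 and 6.02. With Activin A plus Wnt3a miR-219 was undetected and miR-124 was at 3.72.

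Both strands of miR-9 went the other way at day 3. miR-9, which is made in neural progenitors, was at 5.27 ± 0.10 in control and 5.86 ± 0.06 with Activin A, a difference of 0.59 that passed the adjusted p but not 2-fold. miR-9* was at 3.40 and 3.20 on control 1 and 3, undetected on control 2, and at 4.48, 4.51 and 4.57 with Activin A. Its difference of 1.99 was 1.22 without control 2 and did not pass the adjusted p without Activin A 3. Neither direction held with the Activin A plus Wnt3a arrays in place of the Activin A arrays, where miR-9* was at -1.01 (adjusted p = 0.18) and miR-9 at -0.39 (adjusted p = 0.000503). Of the 5 tested miRNAs of the neural list 1 was called higher and 3 lower, and their summed signal was 197 to 255 in control and 94.7 to 97.7 with Activin A.

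miR-335 comes from an intron of the imprinted gene Mest. Its 5p arm was at 8.72 on each of the 3 control arrays and at 6.08, 5.78 and 6.14 with Activin A, a difference of -2.72 (SE 0.08, limma adjusted p = 6.27e-09) or 6.61-fold. Its 3p arm was at 7.82, 7.67 and 7.94 in control and at 6.12, 6.37 and 6.01 with Activin A, a difference of -1.65. Both arms fell together, and they lie at chr6:30741314-30741336 and chr6:30741354-30741375. With Wnt3a alone the 5p arm was at 8.87, and with Activin A plus Wnt3a at 6.36.

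The miR-99, miR-100 and miR-125 miRNAs are cut from 3 related clusters, and each of them held members that differed in direction. Of 7 tested members 1 was called higher and 3 lower, and 2 and 4 passed the adjusted p. In the cluster of miR-99b, let-7e and miR-125a on chromosome 17 the main strands of all 3 rose, while miR-125a-3p, from the other arm of miR-125a, fell by 0.39 (limma adjusted p = 0.000112) and miR-99b* was at 4.47 in control and 3.99 with Activin A (adjusted p = 0.114). miR-125a-5p was at 6.05, 5.95 and 6.26 in control and at 7.22, 7.12 and 7.10 with Activin A, a difference of 1.06 (SE 0.09), which was 0.99 without control 2 and so no longer 2-fold. miR-99b rose by 0.90 from 6.31 ± 0.15. let-7e, a member of the let-7 family that opposes LIN28, was at 3.13 and 3.10 on control 1 and 3, undetected on control 2, and at 5.33, 5.26 and 5.26 with Activin A. Its difference was 2.88, and 2.17 without control 2.

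In the cluster of miR-100 and miR-125b-1 on chromosome 9 (chr9:41531425-41582002, plus strand) miR-100 and miR-125b-5p fell. let-7a, which has a copy between them and another on chromosome 13, was at 4.28 in control and 5.07 with Activin A, a difference of 0.78 that passed the adjusted p but not 2-fold. miR-125b-5p was at 6.88, 6.74 and 6.86 in control and at 4.82, 4.70 and 4.68 with Activin A, a difference of -2.09 (SE 0.06, limma adjusted p = 6.27e-09) or 4.26-fold. miR-100 was at 4.31, 4.11 and 4.64 in control and on no Activin A array, at least 4.34-fold lower. miR-125b-5p is also encoded on chromosome 16, and its mature sequence does not tell the copies apart.

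In the cluster of miR-99a and let-7c on chromosome 16 (chr16:77598936-77599750, plus strand) the members were called in opposite directions. let-7c was at 2.95 and 3.07 on control 1 and 3, undetected on control 2, and at 4.93, 4.84 and 4.95 with Activin A, a difference of 2.57, and of 1.90 without control 2. let-7c has a further copy on chromosome 15. miR-99a was at 2.88 and 3.23 on control 1 and 3 and undetected on the other 4 arrays, at least 1.10-fold lower, or at least 1.76-fold without control 2, where its difference went from -1.37 to -2.06. Its adjusted p was above 0.05 when control 1, control 3 or any 1 Activin A array was left out. Of the 9 members of the let-7 family on the array 4 were tested. The others, let-7b, let-7d, let-7g, let-7i and miR-98, were undetected in both groups. All 4 tested members passed the adjusted p, all higher, and let-7a (0.78) and let-7f (0.37) stayed under 2-fold. By the 75th percentile scaling 3 of these 4 passed, all higher. let-7f did not pass without control 1, control 3 or Activin A 1.

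The cluster of miR-322, miR-503, miR-542 and miR-450b on the X chromosome (chrX:53047997-53054349, minus strand) was also divided. miR-322 (seed AGCAGCA) and miR-503 (seed AGCAGCG) are grouped with miR-15 and miR-16, which restrain the cell cycle. Of 8 tested miRNAs listed with that family, the star strand miR-15b* among them, 2 were called, both lower, with a median of -0.07. miR-322 was at 6.97 ± 0.04 (SD, n = 3) in control and at 5.50, 5.55 and 5.72 with Activin A, a difference of -1.38 (SE 0.06, limma adjusted p = 3.55e-08). miR-503 was at 3.95, 4.51 and 3.71 in control and undetected with Activin A, at least 3.53-fold lower. From the same region miR-542-3p was undetected in control and at 3.07, 4.17 and 4.37 with Activin A, at least 2.76-fold higher, and miR-450a-5p rose by 0.54. miR-351 was at -0.83 (adjusted p = 0.0312), and did not pass when control 1, control 3 or any 1 Activin A array was left out.

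**Figure D3:**
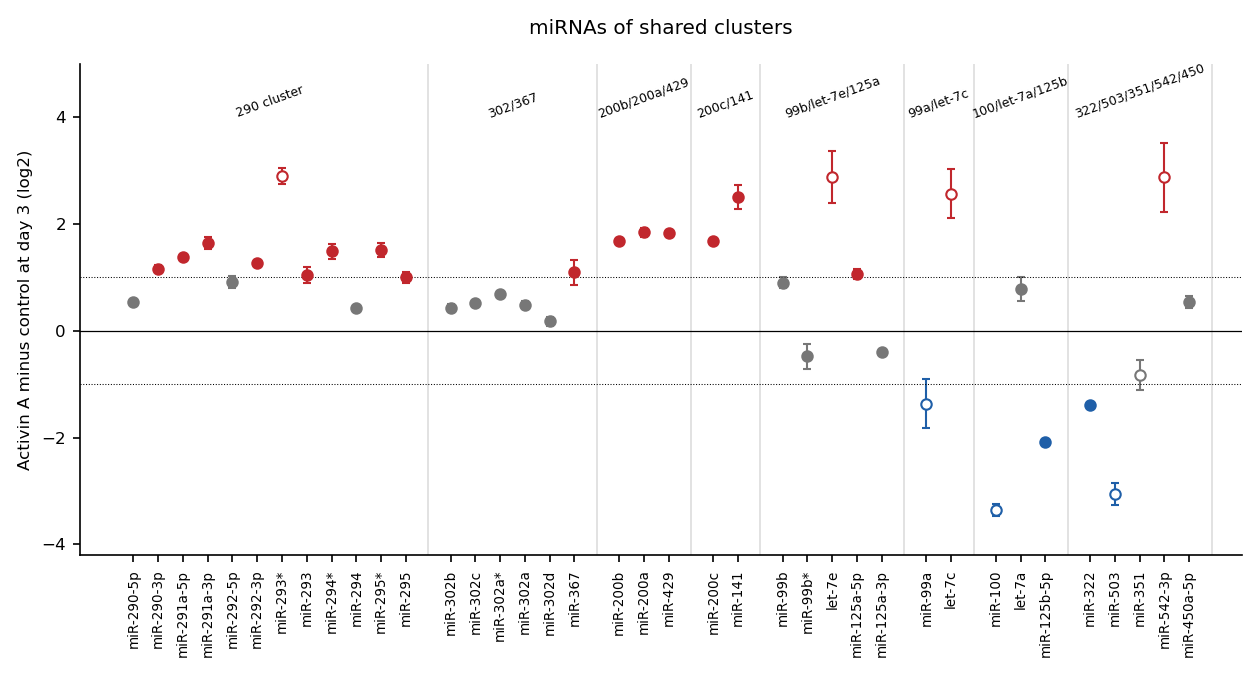
Each point is the Activin A minus control difference at day 3 (log2, with its SE) of 1 miRNA, grouped by genomic cluster, red where called higher, blue where called lower and grey where not called, with open points for miRNAs missing on 1 or more of the 6 arrays. The miR-290 cluster, the cluster of miR-302 with miR-367 and the miR-200 clusters had differences of 1 direction, while the clusters of miR-99b with let-7e, of miR-100 with let-7a, of miR-99a with let-7c and of miR-322 with miR-542-3p held members in both directions. miR-291b-5p, miR-302b* and miR-302c* are not drawn.

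The miR-23, miR-27 and miR-24 miRNAs come from a pair of related clusters, on chromosome 8 (chr8:84208518-84208921) and chromosome 13 (chr13:63300484-63301275), and members of both rose. Of 6 tested 5 were called higher, with a median of 1.25. miR-27a was at 6.58, 6.59 and 6.53 in control and at 8.26, 8.29 and 8.18 with Activin A, a difference of 1.68 (SE 0.06, limma adjusted p = 2.14e-08). miR-23a differed by 1.40, miR-24 by 1.28, miR-27b by 1.21 and miR-23b by 1.01. None of their groups overlapped, which held for 58% of all tested miRNAs. The members of the chromosome 8 cluster had the larger values, but miR-27a and miR-27b differ only by C19U and miR-24 is encoded in both clusters.

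The clusters of the miR-17 family, which promote growth, had lower values for all of their called members, and the size of the difference depended on the scaling. Of 10 tested members of the miR-17-92 cluster 2 were called lower and 6 passed the adjusted p, all lower. Another member, miR-19a, had the higher mean with Activin A, 9.05 against 8.60, without passing. miR-92a was at 12.18, 12.18 and 12.48 in control and at 11.13, 10.98 and 11.13 with Activin A, a difference of -1.20, which was -0.53 by the 75th percentile scaling. miR-20b, of the related cluster on the X chromosome, was at -1.11 and -0.37 by the same measures. miR-92a is also encoded in that X-chromosome cluster, and its mature sequence does not tell the copies apart. miR-92a* was detected on control 1 and 3 only. Its difference of -1.43 was -2.14 without control 2, a bound of at least 1.14-fold that became 1.87-fold, and it did not pass when control 1, control 3 or any 1 Activin A array was left out. In the miR-106b-25 cluster none of 4 tested members was called by limma, 2 had an unadjusted p under 0.05 and a lower value, and the median was -0.14. Its miR-25, with the same seed as miR-92a, was at -0.22, with an adjusted p of 0.026 that did not pass when any 1 of the Activin A arrays was left out. miR-19b was at -0.65 (adjusted p = 0.0506), and 0.08 by the 75th percentile scaling. Both miR-1224 and miR-709, bright miRNAs outside the families followed here, were called lower at -1.63 and -1.15, and were at -0.81 and -0.70 by that scaling.

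In the miR-181 family, which is active in lymphoid and muscle development, the members parted. miR-181b was at 5.43, 5.59 and 5.58 in control and with Activin A was detected on 1 array only, at 3.18, a difference of -3.81 (SE 0.57, limma adjusted p = 0.00033). miR-181c was undetected in control and at 3.23 and 3.37 on 2 Activin A arrays, at least 1.09-fold higher, and it did not pass when any 1 control array, Activin A 1 or Activin A 3 was left out. miR-181d was at 4.88 ± 0.17 in control and 5.23 ± 0.26 with Activin A, with an adjusted p of 0.0964.

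The miR-10 and miR-196 miRNAs lie in the Hox clusters and mark position along the body axis. miR-10a was at 3.88, 4.41 and 4.72 in control and at 3.32, 3.16 and 3.10 with Activin A, a difference of -1.15 (SE 0.17, limma adjusted p = 0.000364). miR-10b was at 3.93, 4.26 and 4.70 in control and at 3.34, 3.20 and 3.32 with Activin A, a difference of -1.01. Both fell, and with Wnt3a alone both were above control, at a mean of 5.75 and 6.08. Of 4 tested miRNAs of these loci 1 was called higher and 2 lower. miR-196b was undetected in control and at 3.07 and 2.91 on 2 Activin A arrays, and did not pass when any 1 control array, Activin A 2 or Activin A 3 was left out. With the Activin A plus Wnt3a arrays in place of the Activin A arrays, miR-10b turned to 0.22 (adjusted p = 0.279).

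Among the remaining miRNAs that rose, miR-489 had the widest bound. It was undetected on all control and Wnt3a arrays and at 4.53, 4.66 and 4.62 with Activin A, at least 4.58-fold higher (limma adjusted p = 1.38e-09). miR-32 was undetected in control and at 3.74, 3.62 and 3.23 with Activin A, at least 2.17-fold higher. miR-205, an epithelial miRNA that shares ZEB targets with the miR-200 family, was at 3.20 and 3.99 on control 1 and 3, undetected on control 2, and at 5.19, 5.00 and 5.00 with Activin A. Its difference was 2.34, and 1.47 without control 2. miR-375, known from pancreatic islets and gut endoderm, was detected on control 3 alone (2.77) and at 3.37, 3.25 and 3.20 with Activin A, a difference of 1.68 (SE 0.43, adjusted p = 0.00754). With Wnt3a alone its mean was 4.16 and with both factors 4.38, so the Activin A level was the lowest of the 3 treated groups. Neither miR-205 nor miR-375 passed the adjusted p in a fit of the 6 compared arrays alone.

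The smaller families had at most 1 called member each. miR-29b, which targets collagens, was at 4.29, 4.81 and 3.86 in control and at 5.71, 5.71 and 5.67 with Activin A, a difference of 1.37 (SE 0.19). Its relatives miR-29c (0.67) and miR-29a (0.49) passed the adjusted p only. miR-222 was detected on control 1 alone and on all Activin A arrays, a difference of 2.24, and of 1.92 without control 2. Its neighbour miR-221 rose by 0.71. In the family of miR-148 and miR-152, 1 of 3 tested members was called higher (miR-152) and 2 passed the adjusted p, with a median of 0.63. In the miR-26 family neither of 2 was called, 1 had an unadjusted p under 0.05 and was lower, and the median was -0.07. In the cluster of miR-183, miR-96 and miR-182, found in epithelial and sensory cells, all 4 tested members passed the adjusted p, with miR-183* at 1.04, miR-96 at 0.88, miR-182 at 0.59 and miR-183 at 0.53. miR-34c, of a family induced by p53, rose by 1.03, and was at 0.88 by the 75th percentile scaling. miR-135a fell from 5.26 ± 0.09 to 3.85 ± 0.29, a difference of -1.40. The other called miRNAs were dim and partly detected: miR-224, miR-338-5p, miR-299 and miR-762. miR-224 was at 1.76, and at 0.96 and not called without control 2. miR-338-5p was at 1.29, and at 1.09 without control 2. miR-299 was at 1.02, and at 0.61 and not called without control 2. miR-224 did not pass the adjusted p in 2 of the 12 omissions of 1 array. miR-299 passed in only 3 of the 12, and neither it nor miR-338-5p passed after normexp background correction. miR-762 was detected on control 1 and 3 only, at least 1.18-fold lower, or at least 1.96-fold without control 2, where its difference went from -1.47 to -2.21. It passed in only 5 of the 12 omissions, and turned to 0.52 with the Activin A plus Wnt3a arrays.

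miRNAs of other cell types were followed as lists. Of the 13 fibroblast and mesenchymal miRNAs on the array 6 were tested, 2 were called higher (miR-31* and miR-152) and 1 lower (miR-199a-3p). miR-143, miR-145, miR-214 and miR-199a-5p were undetected on all 6 arrays. The summed signal of the list was 863 to 1121 in control and 1150 to 1328 with Activin A, most of it from miR-21, which rose by 0.35 with overlapping groups and did not pass without control 1 or Activin A 3. miR-31* was undetected in control and at least 1.68-fold higher, and miR-31 rose by 0.81. miR-152 was at 1.93, and at 1.31 without control 2. miR-199a-3p was at 4.60, 4.15 and 4.66 in control and at 3.04 and 3.07 on 2 Activin A arrays, a difference of -2.10. The part of leftover feeder cells in these values was not tested.

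All 8 heart and muscle miRNAs, miR-1, miR-133a, miR-206 and miR-499 among them, were undetected on the 6 arrays. Of the 10 blood and endothelial miRNAs 4 were tested and none was called. By limma's adjusted p alone 1 passed, miR-126-3p at 0.25, and no other had an unadjusted p under 0.05. It did not pass in 8 of the 12 omissions of 1 array and turned to -0.02 with the Activin A plus Wnt3a arrays. The markers miR-142-3p, miR-150, miR-144 and miR-451 were undetected. Of the 9 gut, liver and pancreas miRNAs 2 were tested, miR-375 (above) and miR-218, which rose by 0.64 from 5.84 ± 0.05, while miR-122, miR-192, miR-194, miR-215 and miR-217 were undetected.

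The large groups held few called members. Of the 51 tested miRNAs of the imprinted Dlk1-Dio3 cluster 1 was called (miR-299), 4 passed the adjusted p higher and 20 lower, and the median was -0.11. Of the 21 tested miRNAs of the repeat cluster of miR-297, miR-466, miR-467 and miR-669 none was called by limma, 4 had an unadjusted p under 0.05, 1 passed the adjusted p in each direction, and the median of 0.10 became -0.08 under the 75th percentile scaling. In the miR-30 family none of 8 was called, with 1 higher and 5 lower by adjusted p and no further one at an unadjusted p under 0.05. In the family of miR-130 and miR-301, where miR-130a is the brightest, none of 5 was called, 4 had an unadjusted p under 0.05, 2 in each direction, and its median of -0.12 became 0.10 under that scaling. The scaling moved the median of all tested miRNAs from -0.02 to -0.20, and small differences are to be read against that shift.

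**Figure D4:**
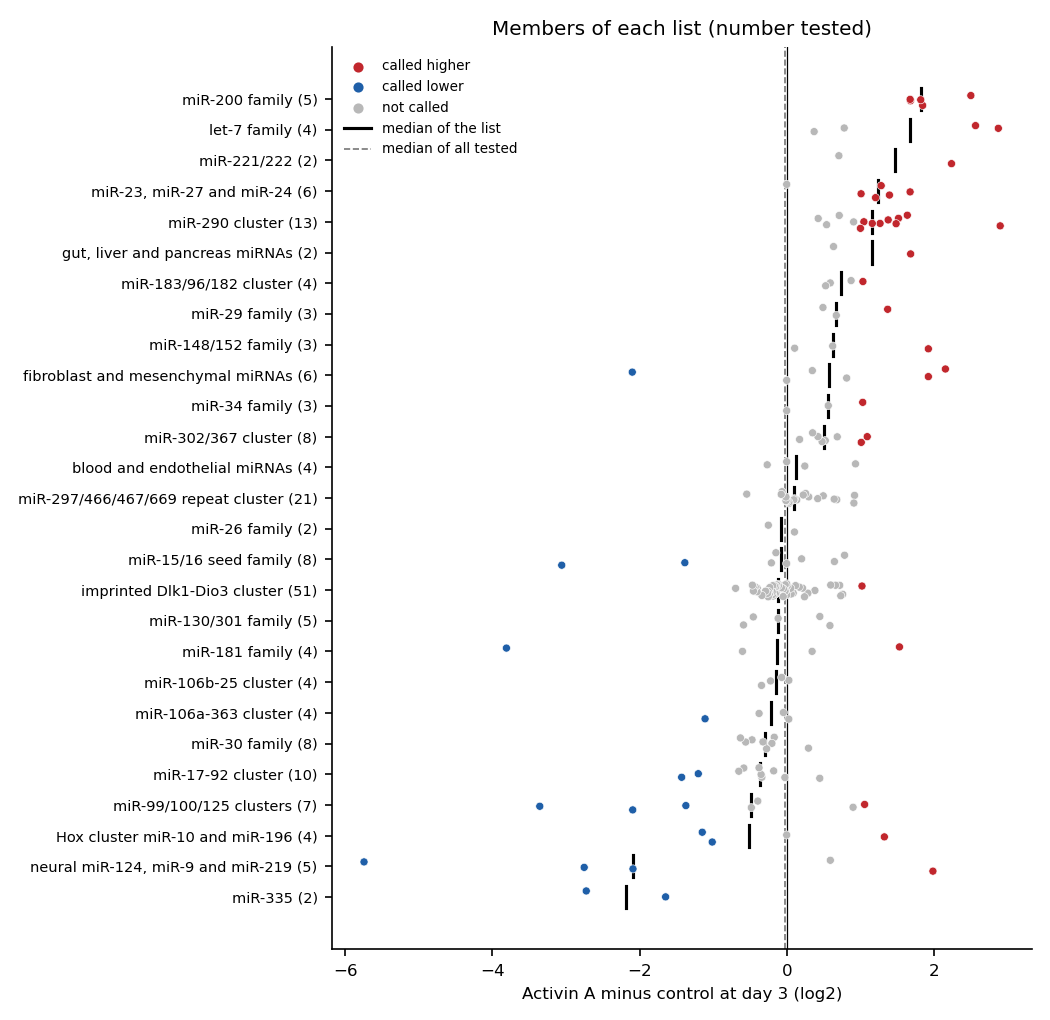
Each point is the Activin A minus control difference at day 3 (log2) of 1 tested miRNA, in rows for the families, clusters and cell type lists, red where called higher, blue where called lower, with a black bar at each list's median and a dashed line at the median of all tested miRNAs. The miR-200 family and the miR-23/27/24 group lie to the right for most members, miR-335 to the left, and the largest list, Dlk1-Dio3 with 51 tested members, is centred at -0.11.

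Levels in undifferentiated ESCs, on other slides and so only described, place these differences. Of the 23 called higher and detected on all 6 arrays, 21 were detected on all 3 ESC arrays and 16 of these had a higher mean in ESCs than in the day-3 control. In the miR-290 cluster 11 of 13 tested members were detected on all ESC arrays, and all 11 had a higher mean there than in control, with miR-291a-5p at 8.37 in ESCs, 5.67 in control and 7.05 with Activin A. In the miR-200 family 4 of 5 were detected on all ESC arrays, all with a mean at or below that of the day-3 control. miR-200a was at 5.23 in ESCs, miR-200b at 7.22, miR-200c at 5.39 and miR-429 at 6.48, and miR-141 was undetected there. Of the 12 called lower and detected on all 6 arrays, 5 were detected on all ESC arrays, 3 with a lower and 2 with a higher mean than in control, and miR-125b-5p was at 10.31 there. 13 miRNAs called higher and 9 called lower were undetected on all ESC arrays, among them miR-489, miR-219, miR-100 and miR-503.

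The addition of Wnt3a to Activin A changed few miRNAs more than 2-fold at day 3. In Activin A plus Wnt3a against Activin A, 13 of 319 (4.08%) were called by limma, 6 (1.88%) higher and 7 (2.19%) lower. By adjusted p alone 96 (30.1%) passed, 49 higher and 47 lower. By the 75th percentile scaling 19 of 21 were higher. miR-10a was undetected with both factors against 3.19 ± 0.11 with Activin A, while miR-10b was at 4.52 ± 0.18 against 3.29 ± 0.08, so these near-identical miRNAs went opposite ways. miR-489 was lower with both factors (-1.08), as were miR-542-3p (-2.12), miR-31* (-1.28) and miR-9*, whose mean went from 4.52 to 1.52, and miR-302b* (1.33), miR-302c* (1.12) and miR-762 (1.99) were higher. miR-542-3p and miR-762 did not pass in 4 of the 12 omissions of 1 array each. The Activin A plus Wnt3a arrays of day 3 lay on another slide and in another scan than the other day-3 arrays, so slide and treatment cannot be told apart here. No member of the miR-200 family and neither arm of miR-335 was called.

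At day 5 the comparison has its own control arrays. The day-5 arrays lay on other slides and in another scan than the day-3 arrays, so day, slide and scan cannot be told apart. Activin A 3 of day 5 lay on a different slide from the other day-5 arrays compared. Of the 62 miRNAs called at day 3, 58 had a difference of the same sign at day 5, 38 of the higher and 20 of the lower, and for 48 it was also more than 2-fold, without a test of that day alone. Of all 319 miRNAs tested at day 3, 233 (73%) had the same sign on both days. The change of the Activin A effect from day 3 to day 5 was called for 48 of 347 miRNAs (13.8%) by limma's interaction contrast, 21 (6.05%) upwards and 27 (7.78%) downwards, and 22 of these were called at day 3. By adjusted p alone 158 (45.5%) passed. The interaction was called upwards for 5 of 7 tested members of the miR-200 family, 6 of 8 of the cluster of miR-302 and miR-367 and 3 of 13 of the miR-290 cluster, and downwards for none of them. The effect on miR-429 grew from 1.82 to 3.59 (interaction 1.76, SE 0.07, adjusted p = 9.31e-08), on miR-141 from 2.50 to 4.88, and on miR-302a from 0.48 to 2.15. With Activin A miR-429 was at 8.26, 8.29 and 8.26 at day 5, near its day-3 values, while the control arrays were at 4.60, 4.77 and 4.68, below theirs. Among the neural miRNAs miR-124 reached 7.91, 7.60 and 7.88 in control at day 5 against 3.16, 3.18 and 3.23 with Activin A, an interaction of -2.52. The differences of miR-9 and miR-9* changed sign, to -2.23 and -1.69 at day 5. For miR-9 the control mean was 5.27 at day 3 and 7.89 at day 5, while the Activin A mean was 5.86 and 5.66.

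Other effects shrank or widened. miR-335-5p was at -1.54 at day 5 (interaction 1.19), and miR-542-3p, which control cells had reached by then (3.57), at 0.57. miR-375 was undetected in all day-5 control arrays and at 5.63, 5.55 and 5.65 with Activin A, an interaction of 2.93 (SE 0.56, adjusted p = 0.00236). miR-99a and miR-100 were at 6.19 and 6.45 in control at day 5 and undetected on all Activin A arrays. The interaction of let-7c, -1.92, did not pass in 8 of the 12 omissions of 1 array, and that of miR-1224, 1.34, turned to -0.03 under the 75th percentile scaling.

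**Figure D5:**
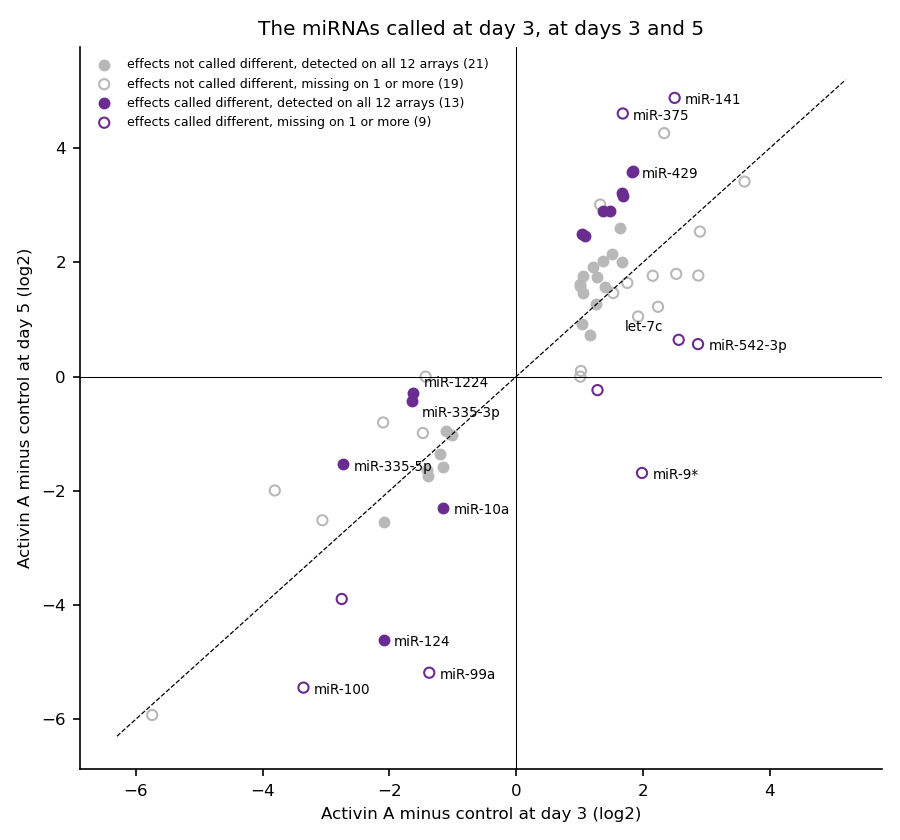
For the 62 miRNAs called at day 3, the Activin A minus control difference at day 5 (vertical axis, log2) is plotted against that at day 3 (horizontal axis, log2), purple where the interaction was called and grey where it was not, open where the miRNA was flagged undetected on 1 or more of the 12 arrays, with a dashed line of equal effects. The 22 purple points lie off the line, miR-141 and miR-375 above it at 4.88 and 4.61 on day 5 and miR-9* below it at -1.69.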

How the data were processed

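RNA was measured on 1-colour Agilent mouse miRNA arrays, 1 array per sample. The authors deposited the scanner output of each array, in which the total gene signal is a background-subtracted intensity summed over the probes of a miRNA, with a detection flag. The labels name Feature Extraction 9.5.3.1, while the file headers give 10.7.3.1. The deposited series table was not used, because its Activin A and Activin A plus Wnt3a columns are exchanged against the scanner output.

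The 650 miRNA rows of all 39 arrays were quantile normalized. Values under 2 were set to 2 before taking log2, so an undetected miRNA stands at 1. A mouse miRNA entered a fit if 1 or more of its groups had it detected on 2 or 3 arrays, and was tested in R 4.3.3 with limma 3.58.1 (statmod 1.5.0 for random blocks), fitting the 12 day-3 arrays with 4 group means, with Benjamini-Hochberg adjustment over all tested miRNAs. A miRNA was called at an adjusted p under 0.05 and a difference over 2-fold. The day-5 interaction used the 12 control and Activin A arrays of days 3 and 5. On simulated data for the main comparison, with 286 miRNAs tested, log2 changes of -3, -2, 2 or 3 were planted in 60 miRNAs. These were detected on 2 or 3 control arrays. Of the 60 changed miRNAs 59 were recovered, and 5 unchanged ones were called. Smaller changes and miRNAs undetected in control were not simulated, so recovery near the 2-fold threshold is not known.

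The miRNAs named are the 10 largest called increases and decreases on all 6 arrays, the 5 largest bounds in each direction, and the called members (or the brightest) of 28 lists. The members and lists were chosen with earlier results of these data known, and miRNAs named outside the rule were chosen after their values were seen. Array names without an arm were matched to RefSeq mature sequences by the arm usually counted as the main strand, and starred names by the other arm.

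Alternatives covered the scaling, normexp background correction, floors of 1 and 4, the detection filter, the arrays in the fit and the slide as a block. They also covered a replicate block, a plain test without limma's moderation on the arrays of the compared groups only, and leaving out each array. Chosen after seeing the data were the arrays of the shared slide only and the Activin A plus Wnt3a arrays in place of Activin A.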

Additional observations from a re-analysis of the deposited data

Results flagged for a closer look

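For 30 miRNAs of the report the Activin A effect at day 5 differed from that at day 3 in limma's interaction contrast, with each day measured against its own 3 control arrays. Slide and scan also differ between the days. Values are the effect at day 5 minus that at day 3 on the log2 scale. The miR-200 family widened, by 2.38 for miR-141, 1.76 for miR-429, 1.75 for miR-200a, 1.55 for miR-200b and 1.48 for miR-200c. The cluster of miR-302 and miR-367 did the same, by 2.15 for miR-302a*, 1.67 for miR-302a, 1.56 for miR-302c, 1.52 for miR-302d, 1.42 for miR-302b and 1.37 for miR-367. In the miR-290 cluster miR-294 gained 1.53, miR-291a-5p 1.53 and miR-294* 1.42. miR-375 gained 2.93 and miR-183* 1.47.

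The effect moved downwards by -3.82 for miR-99a, -2.09 for miR-100, -2.52 for miR-124, -1.14 for miR-124* and -1.15 for miR-10a, which were lower at both days. It moved downwards by -3.67 for miR-9*, -2.82 for miR-9 and -1.52 for miR-338-5p, which were higher with Activin A at day 3 and lower at day 5, and by -1.08 for let-7a, at 0.78 and -0.30 on the 2 days. It moved downwards by -2.30 for miR-542-3p and -1.92 for let-7c, which were higher at both days. The decreases of miR-335-5p, miR-335-3p and miR-1224 were smaller at day 5, by 1.19, 1.23 and 1.34. At day 5 miR-375 was undetected on all control arrays, and miR-99a, miR-100 and miR-124* on all Activin A arrays. miR-141 and miR-183* stood at the floor on all day-5 control arrays, although miR-141 was flagged detected on 1 of them and miR-183* on 3. At day 3 miR-542-3p was undetected on all control arrays, and miR-9*, let-7c and miR-338-5p on part of them. Of the 30 miRNAs, 10 stood at the floor on 1 or more of the 12 arrays, and the sizes and p-values of their effects depend on it.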

How the results depend on the processing

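In Activin A against control at day 3, 62 miRNAs were called. The count was 9 after normexp background correction and 35 over miRNAs detected on all arrays compared, which leaves out those missing in 1 group. Leaving out 1 array gave 52 to 62, and 34 higher against 26 lower without control 2. The other settings gave 44 (the plain test) to 66 calls. The 66 came with the Activin A plus Wnt3a arrays in place of Activin A, where 48 were among the 62. On the shared slide alone 53 were called. Of the 62, 45 were called in all 12 omissions. Of the 35 called and detected on all 6 arrays, 29 passed the adjusted p under every planned setting. The other called miRNAs could not, because 1 setting tests only miRNAs detected on all arrays compared.

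In Activin A plus Wnt3a against Activin A 13 were called. The count was 21 with 75th percentile scaling over detected miRNAs (90.5% higher, against 46.2%, and 83.3% with scaling over all miRNAs), 8 with a floor of 1, without a detection filter or with only the compared arrays, 6 with the plain test, 2 over miRNAs detected on all arrays and 0 after normexp in limma, where 138 had an unadjusted p under 0.05. Leaving out 1 array gave 9 to 14. The 48 calls of the interaction became 8 after normexp and 26 over miRNAs detected on all arrays, and 46 to 54 without 1 array.

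Directions turned with the Activin A plus Wnt3a arrays for miR-762 (0.52), miR-9* (-1.01), miR-10b (0.22), miR-126-3p (-0.0234) and miR-9 (-0.39), after normexp for miR-302b (-0.0448), and for the interaction of miR-1224 under 75th percentile scaling (-0.0323). The causes were not tested. Same-numbered control and Activin A arrays did not deviate together (r = -0.09, -0.04 and -0.04 over 244 miRNAs). With 3 arrays in each group this cannot settle whether the numbers pair the samples. With a replicate block 61, 11 and 48 were called in the 3 comparisons. A fixed slide block could not be fitted for Activin A plus Wnt3a against Activin A, and the fit of the compared arrays alone and the filter on control or Activin A were not run for the interaction. Results for dim miRNAs are limited by their detection, above all on control 2. Of the called miRNAs, 10 were missing on control 2 alone, and the reason was not tested.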
